A study of Hordeum vulgare with 28 samples.

Results

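Barley (*Hordeum vulgare*, cultivar Morex) leaves were compared after 2 h of infestation by the grass specialist spider mite *Oligonychus pratensis*, the Banks grass mite (O2), with leaves that carried no mites (C). The comparison used 4 O2 and 4 C libraries, which is 8 of the 28 in the study, and it covered all genes of the deposited table. Plants were 30 days old and leaf 5 was used. The O2 leaves received 400 adult female mites per leaf section inside wax barriers, and the C leaves received the same barriers and no mites. For reference, the study also holds 4 libraries each of leaves infested by the generalist *Tetranychus urticae* for 2 h with 400 females (T2) and wounded with sandpaper 2 h before collection (W2), and of leaves sampled at 24 h after *O. pratensis* (O24, 200 females), *T. urticae* (T24, 200 females) or wounding (W24). No control group had its own time point, so the same C libraries serve 2 h and 24 h, and all leaves were collected in the same window. The *O. pratensis* strain came from field maize and was kept on barley before use, and each library is 1 leaf section. Per the study's methods, released mites need time, up to several hours, to disperse and start feeding, and more mites were applied at 2 h so that feeding would have begun, but the feeding time of each leaf is not known. Plants were laid out in a randomized block design, and the labels do not say whether a replicate number stands for a block.

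Spider mites pierce leaf cells with needle-like stylets and empty them. Plants answer cell damage and herbivore-derived molecules within minutes through calcium influx and protein kinase cascades, and then through the hormone jasmonate, which is made from chloroplast fatty acids. Jasmonate triggers the destruction of JAZ repressor proteins, and genes for protease inhibitors, chitinases and defensive metabolites are then transcribed. The roles given below are those of *Arabidopsis thaliana* genes, because a name was given to a barley gene only where the study's table of reciprocal best protein matches pairs it with an *A. thaliana* locus. The readable portion of that table named 1998 genes of the count table, and 1828 of them were tested, so most of the genes described by number below carry no name.

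Libraries were moderately deep. Total counts were 15198755 to 18899809 in O2 and 22826959 to 35219791 in C, and 18287 to 18394 genes had a count in O2 libraries, against 18281 to 18796 in C libraries. The 25592 genes of the table were reduced to 16948 after a filter on low counts. Levels are given as CPM, the count of a gene divided by its library's total and scaled by a constant, which is not corrected for gene length and so is not compared between genes. Leaf identity was checked on 14 nuclear photosynthesis genes, whose CPM summed to between 18523 and 22092 in O2 and between 19452 and 24787 in C. Of 4 pollen and seed markers the 2 that passed the filter summed to under 2.2 CPM in every library (0.921 to 1.80 in O2 and 0.870 to 2.10 in C).

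At 2 h the change was almost entirely upward. Genes were called where edgeR's quasi-likelihood test gave a Benjamini-Hochberg adjusted p below 0.01 and the log2 fold change exceeded 1 in size. The fit covered all 28 libraries, so its estimate of spread was shared with the groups outside this comparison. Of the 16948 genes tested, 445 were called higher in O2 (2.63%) and 3 were called lower (0.0177%). An unadjusted p under 0.05 was reached by 2473 genes (14.6%), of which 1571 were higher and 902 lower in O2. The median log2 fold change over all tested genes was -0.01. All 445 induced genes carry MLOC identifiers, those of the annotated gene models. No share over all tested genes is set beside this, so it only describes them.

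Many of the induced genes had few counts in control leaves. Their median level was 4.78 CPM in O2, against 0.626 CPM in C. No count in any C library was found for 34 of the 445, and for 187 of all 16948 tested genes. Genes without a C count passed the filter only through other groups. The calls used these same C libraries, so these values describe the genes and test nothing. The plot of change by level places every tested gene by its depth-scaled count, and as gene length is not corrected for, its horizontal axis gives the counts behind an estimate and not an order of transcript abundance.

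**Figure D1:**
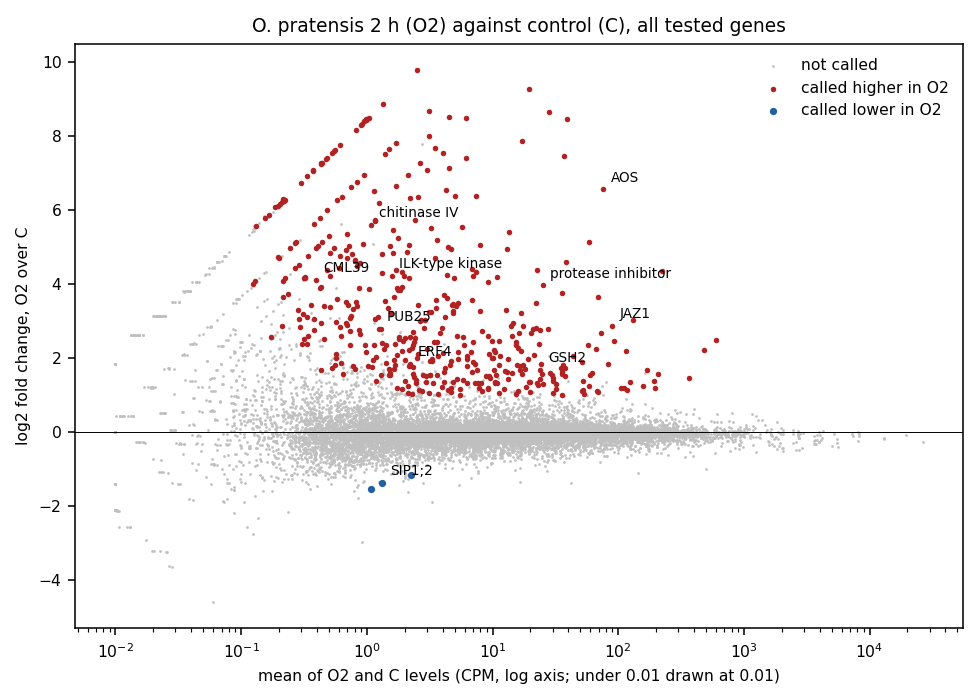
Log2 fold change of O2 over C (vertical axis) against the mean of the O2 and C levels in CPM (horizontal log axis) for the 16948 tested genes. The 445 genes called higher lie above 1, the 3 genes called lower are at the left of centre below -1, and labels mark some of the called genes with an *A. thaliana* pair.

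The median log2 fold change of the 445 genes was 2.73, which is 6.63-fold, with an interquartile range of 1.73 to 4.60. It was 2.73 as well when the 34 genes without control counts were set to the lower bound that a floor of 3 counts over the 4 C libraries allows. By size, 151 genes rose by less than 4-fold, 94 had a log2 fold change between 2 and 3, 58 between 3 and 4, 78 between 4 and 6 and 64 above 6. In 412 of the 445 (92.6%) every O2 library lay above every C library, a pattern that 6.31% of all tested genes showed. All 3 lower genes had every O2 library below every C library, which held for 2.05% of all tested genes. The calls used these same libraries, so the lack of overlap describes the called genes and tests nothing.

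Of the genes with a pair, those with the lowest adjusted p were the jasmonate genes *AOS* and *JAZ1*. The gene paired with *AOS* (MLOC_21933), allene oxide synthase, which commits a fatty acid hydroperoxide to jasmonate, was at 139.9, 279, 46.9 and 138 CPM in the O2 libraries and at 1.18, 3.65, 0.746 and 0.625 CPM in the C libraries. The lowest O2 library was more than 10 times the highest C library, and the means were 151 ± 96.0 and 1.55 ± 1.42 CPM (SD, n = 4 each). Its log2 fold change was 6.55 ± 0.60 (SE), a 93.5-fold difference (adjusted p = 8.87e-08, edgeR). It was the largest increase among genes with a pair.

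The gene paired with *JAZ1* (MLOC_12120), a repressor of jasmonate responses that is itself transcribed early in the response, had 159, 223, 73.9 and 179 CPM in O2 and 18.0, 27.4, 21.8 and 16.4 CPM in C. The groups did not overlap, and replicate 3 was the lowest O2 library and replicate 2 the highest, as for *AOS*. The log2 fold change was 2.86 ± 0.24 (SE; adjusted p = 2.14e-08, edgeR). Of the 5 tested genes of the jasmonate list these 2 were called, where 23 of all 1828 tested genes with a pair were (1.26%). The list's median log2 fold change was 0.44. Members of this and the later lists were chosen with earlier results of these data known, so a share above 1.26% tests nothing. An OPC-8:0 CoA ligase-like gene (MLOC_19), of the enzyme class that activates a jasmonate precursor in the peroxisome, reached 51.4 CPM in O2 against 36.5 CPM in C, with a log2 fold change of 0.44 (adjusted p = 0.0113, edgeR), and was not called. This gene, *ST2A*, *MPK3*, *PAD4* and *PBS1* are named after their values were seen. The sulfotransferase gene *ST2A*, whose product removes a jasmonate derivative from the active pool, had a log2 fold change of 0.18 (adjusted p = 0.70).

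Of 11 tested genes of the calcium and kinase list 1 was called, beside 1.26% of all tested genes with a pair, and a single gene says nothing about the list. The gene paired with *CML39* (MLOC_10787), a calmodulin-like calcium sensor, had 0.847, 1.18, 0.284 and 0.692 CPM in O2 and 0.0438, 0.0696, 0 and 0.0284 CPM in C. These are small counts, 4 in all in the C libraries, but the groups did not overlap. The log2 fold change was 4.11 ± 0.95 (SE; adjusted p = 0.00693, edgeR). The call was lost without any 1 of the 8 libraries other than O2 replicate 3 (adjusted p of 0.0145 to 0.0371, edgeR), so it rests on all of them. *MPK3*, a mitogen-activated protein kinase of wound and immune signalling, averaged 39.0 CPM in O2 against 23.3 CPM in C, a log2 fold change of 0.69 that did not reach the fold threshold or the p threshold (adjusted p = 0.0120). The median of the list was 0.07.

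Outside that list, 3 further signalling genes were induced. MLOC_14660, paired with a protein kinase of the integrin-linked kinase family, had 2.17, 5.13, 1.25 and 3.40 CPM in O2 and 0.131, 0.174, 0.290 and 0.0284 CPM in C. Its O2 libraries all lay above the C libraries, and the log2 fold change was 4.22 ± 0.46 (SE; adjusted p = 4.34e-07, edgeR). MLOC_140, paired with a kinase of the receptor-like type, was at 20.3, 28.2, 10.3 and 19.4 CPM in O2, against 7.80, 5.32, 7.71 and 6.93 CPM in C, a log2 fold change of 1.42 ± 0.21.

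*PUB25* (MLOC_23553), a U-box ubiquitin ligase, had 3.17, 3.55, 0.340 and 1.73 CPM in O2 and 0.307, 0.209, 0.456 and 0.256 CPM in C. Here the groups overlapped, because O2 replicate 3 lay inside the control range. The log2 fold change was 2.78 ± 0.45 (SE; adjusted p = 1.02e-04, edgeR).

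Of 5 tested ethylene genes 1 was called, beside the same 1.26%. It was *ERF4* (MLOC_24530), a transcriptional repressor of the ethylene response factor family. It had 3.44, 4.01, 2.55 and 3.86 CPM in O2 and 1.10, 0.556, 1.08 and 0.994 CPM in C. The O2 libraries were close together and all above C, and the log2 fold change was 1.83 ± 0.29 (SE; adjusted p = 7.17e-05, edgeR). *EIN3*, the master transcription factor of the pathway, was at 144 ± 23.5 CPM in O2 and 111 ± 20.6 CPM in C (SD, n = 4 each) and was not called (log2 fold change 0.33, adjusted p = 0.21).

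The defence list holds enzymes and inhibitors as well as immune regulators and receptors. Of its 11 tested genes 3 were called, beside 1.26% of all tested genes with a pair. Its members were chosen with earlier results of these data known, so this share tests nothing. The gene paired with a class IV chitinase (MLOC_13056), an enzyme that cuts chitin, which plants lack and arthropods and fungi contain, was at 1.90, 3.82, 1.25 and 1.56 CPM in O2 and at 0.0876, 0.0348, 0.0414 and 0 CPM in C. Every O2 library exceeded every C library by more than 10 times, with 4 counts in all in C. The log2 fold change was 5.60 ± 0.68 (SE; adjusted p = 2.83e-06, edgeR).

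A protease inhibitor of the potato type I family (MLOC_2643), a small protein that blocks digestive proteases of herbivores, had 29.1, 106, 11.2 and 42.2 CPM in O2 and 0.832, 7.90, 2.07 and 0.909 CPM in C. The lowest O2 library lay just above the highest C library, and the O2 libraries differed among themselves by almost 10 times. The log2 fold change was 3.95 ± 0.68 (SE; adjusted p = 3.38e-04, edgeR), and it was 3.20 without O2 replicate 2 and 5.11 without C replicate 2.

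The third was *OM66* (MLOC_1081), an ATPase of the mitochondrial outer membrane that is widely used as a marker of stress signalling from that organelle. It had 1.06, 0.987, 0.567 and 0.922 CPM in O2 and 0.131, 0.452, 0.124 and 0.227 CPM in C, without overlap, and a log2 fold change of 1.79 ± 0.37 (SE; adjusted p = 0.00198, edgeR). The call was lost without O2 replicate 1 (adjusted p = 0.0126) and without C replicate 3 (adjusted p = 0.0101). Other members of the list gave no call, among them *PAD4*, a regulator of salicylate immunity (log2 fold change 0.15, adjusted p = 0.70), and the immune kinase *PBS1* (0.28, adjusted p = 0.0357). The list's median was 0.15.

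**Figure D2:**
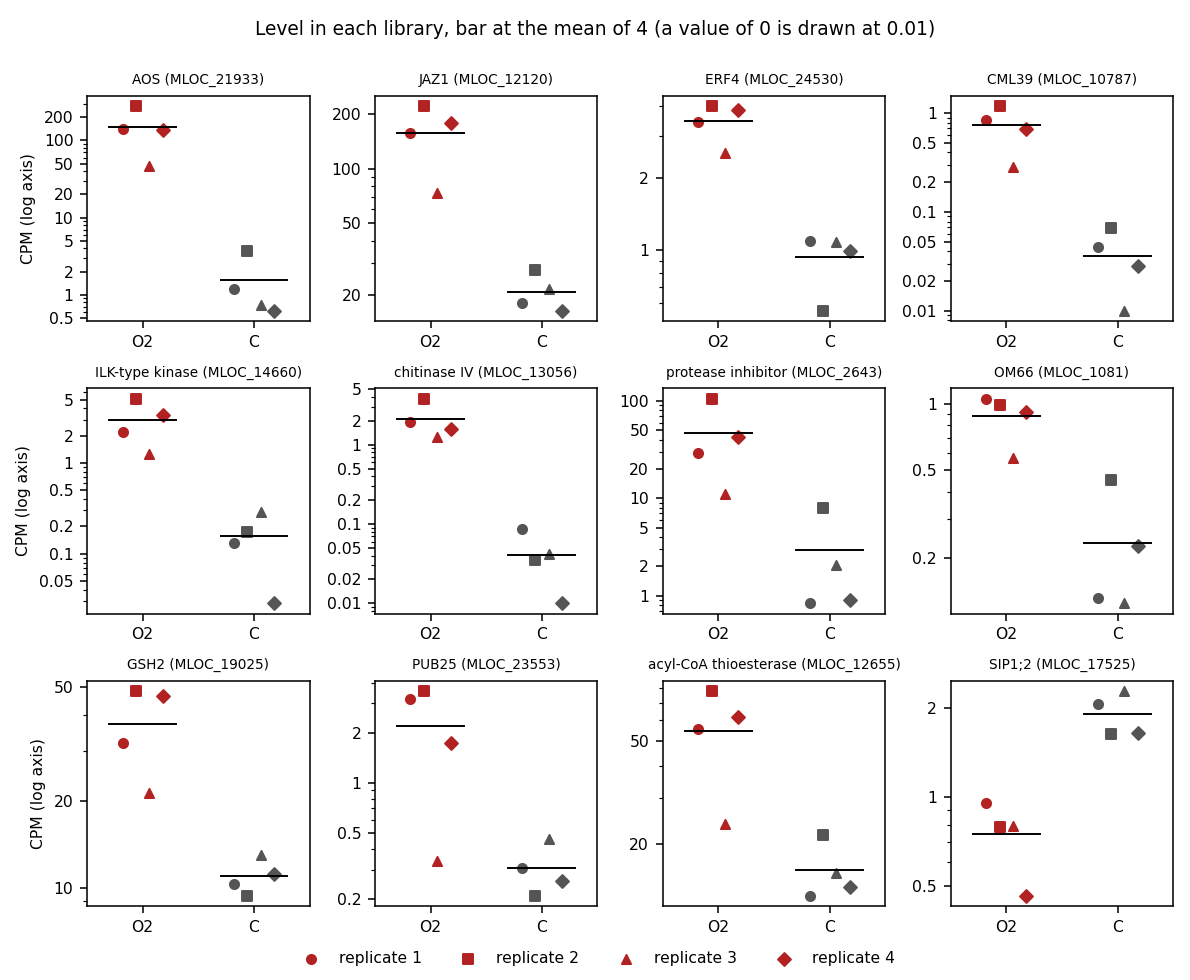
Level in CPM (vertical log axis, a value of 0 drawn at 0.01) of 12 called genes in the 4 O2 libraries (left, red) and the 4 C libraries (right, grey). Symbols mark replicates and bars the means. O2 replicate 3 is the lowest O2 point and O2 lies above C in every panel but that of the aquaporin gene MLOC_17525, with an overlap for *PUB25*.

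The study names 3 barley terpene synthase genes, whose products make volatile or defensive terpenoids. It names them for their induction by mites in these same data, MLOC_13618 at 24 h, so their values describe them and test nothing. MLOC_76989 had 4.18, 12.5, 0.567 and 2.71 CPM in O2 and no count in any C library. Against a floor of 3 counts over the C libraries, its O2 mean was at least 184-fold higher (adjusted p = 5.19e-04, edgeR). Without O2 replicate 2 that mean was at least 91.9-fold higher. These bounds hold for means, and single O2 libraries lay below them. MLOC_56812 had 1.38, 7.04, 0.681 and 1.67 CPM in O2 and likewise no count in C. Its O2 mean was at least 99.5-fold higher, or 45.9-fold without O2 replicate 2 (adjusted p = 4.54e-04 with all libraries, edgeR). In both genes replicate 2 held most of the O2 signal. MLOC_13618 had 0.423, 0.197, 0.0567 and 0.346 CPM in O2 and 0, 0.417, 0 and 0.0284 CPM in C, so the groups overlapped and it was not called (log2 fold change 1.07 ± 0.85, adjusted p = 0.69). The 8 tested genes of the terpenoid and gibberellin list gave 0 calls in edgeR, 1 unadjusted p under 0.05 and 0 calls in DESeq2, with a median log2 fold change of -0.05. This list includes a gene paired with the terpene synthase *TPS14* (MLOC_19896), named after its values were seen. It was at 105 CPM in O2 and 109 CPM in C (log2 fold change -0.11) and was not called.

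Reads counted by the authors were those with a unique position, so terpene synthases, chitinases, JAZ genes and other families with close copies may have lost shared reads, and these values are uncertain to that extent. Among unnamed genes the largest increase after MLOC_76989, by the selection rule used here, was that of MLOC_15761. It had 27.5, 82.2, 9.65 and 36.0 CPM in O2 and 0, 0.174, 0 and 0.0284 CPM in C, with a fitted log2 fold change of 9.27 ± 1.31 (SE; adjusted p = 2.69e-05, edgeR).

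The other named increases included several enzymes and a transporter. The gene paired with *GSH2* (MLOC_19025), glutathione synthetase, which makes the main thiol antioxidant of the cell, was at 31.9, 48.3, 21.4 and 46.6 CPM in O2 and at 10.3, 9.39, 13.01 and 11.2 CPM in C. All O2 libraries were above all C libraries, with a log2 fold change of 1.68 ± 0.23 (SE; adjusted p = 1.35e-05, edgeR). An acyl-CoA thioesterase gene (MLOC_12655), of an enzyme class that releases fatty acids from coenzyme A, had 55.3, 77.6, 23.8 and 61.7 CPM in O2, against 12.6, 21.6, 15.4 and 13.6 CPM in C. O2 replicate 3 was close to the highest control library, and the log2 fold change was 1.73 ± 0.24.

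MLOC_22124, paired with an FAD-dependent monooxygenase, had 14.1, 13.6, 3.80 and 6.40 CPM in O2 and 0.394, 0.348, 0.704 and 0.568 CPM in C, with a log2 fold change of 4.15 ± 0.58 (SE; adjusted p = 2.03e-05, edgeR). The O2 libraries fell into a higher pair and a lower pair, both above C. *PRS3* (MLOC_15525), an enzyme that supplies phosphoribosyl pyrophosphate for nucleotides and some amino acids, averaged 17.5 ± 8.03 CPM in O2 and 4.84 ± 1.48 CPM in C (SD, n = 4 each; log2 fold change 1.79). *URGT2* (MLOC_12715), a Golgi transporter of nucleotide sugars for cell wall polymers, averaged 37.8 ± 12.3 CPM in O2 and 12.1 ± 1.63 CPM in C (log2 fold change 1.57).

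The remaining 7 named increases were between 1.05 and 1.81 on the log2 scale, and each lost its call without at least 1 library. MLOC_13267, an alpha/beta hydrolase gene, had a log2 fold change of 1.81 and lost its call without O2 replicate 2 (adjusted p = 0.0328) or C replicate 2 or 3. MLOC_18178 (1.36), of a family annotated as late embryogenesis abundant glycoproteins, lost it without O2 replicate 2 or 4 or C replicate 1, 2 or 3 (adjusted p up to 0.0259). *RNS1* (MLOC_33219), a secreted ribonuclease that is wound-inducible in *A. thaliana*, was at 15.6 ± 6.80 CPM in O2 and 5.92 ± 1.64 CPM in C (log2 fold change 1.32) and lost its call without O2 replicate 1 or 2 or C replicate 1, 3 or 4 (adjusted p up to 0.0677).

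*ALA1* (MLOC_12897), a lipid flippase, had a log2 fold change of 1.32 and lost its call without O2 replicate 1 or 2 or C replicate 1, 2 or 4 (adjusted p up to 0.0496). A beta-glucanase gene (MLOC_25343, 1.21) lost it without O2 replicate 2 or 4 or C replicate 3 or 4 (adjusted p up to 0.0313). An endomembrane protein gene (MLOC_11918, 1.14) lost it without O2 replicate 2 or 4 or C replicate 1 or 2 (adjusted p up to 0.0243). *AXR4* (MLOC_20913), which helps an auxin carrier reach the plasma membrane, had a log2 fold change of 1.05 and lost its call without O2 replicate 1 or 2 or C replicate 2, 3 or 4, with 0.82 as the lowest estimate. The other 13 of the 23 called genes with a pair, *CML39*, *OM66*, these 7 and the aquaporin gene below apart, kept their calls whichever library was left out.

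Downward changes were few and small. MLOC_17525, paired with a small basic intrinsic aquaporin, a membrane channel, had 0.952, 0.790, 0.794 and 0.461 CPM in O2 and 2.06, 1.63, 2.28 and 1.65 CPM in C. The log2 fold change was -1.39 ± 0.28 (SE; adjusted p = 0.00172, edgeR), and the call was lost without O2 replicate 4 (adjusted p = 0.0132). The unnamed genes MLOC_51631 (0.572 ± 0.130 CPM in O2 and 1.596 ± 0.340 CPM in C) and MLOC_33386 (1.42 ± 0.584 CPM in O2 and 3.08 ± 0.262 CPM in C; SD, n = 4 each) had log2 fold changes of -1.54 and -1.17. MLOC_51631 lost its call without O2 replicate 1 or 4 or C replicate 3 (adjusted p up to 0.0135), and MLOC_33386 without O2 replicate 1, 2 or 4 or C replicate 4 (adjusted p up to 0.0185).

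The other lists held no call at 2 h. With 1.26% of all tested genes with a pair called, lists of this size hold few calls or none at that share, so the counts of 0 are not a result about their members. The 14 nuclear photosynthesis genes all had estimates below 0, with a median log2 fold change of -0.29 beside -0.01 over all tested genes, and none was called (0 in edgeR, 4 at an unadjusted p under 0.05, 0 in DESeq2). Among them *LHCB2.4* (MLOC_22471), an antenna protein of photosystem II, was at 7529 ± 1014 CPM in O2 and 8605 ± 1109.9 CPM in C (SD, n = 4 each). Of 67 listed chloroplast genes, 51 were tested, with a median of -0.02, 0 calls in edgeR, 1 unadjusted p under 0.05 and 0 calls in DESeq2. The library method selects poly(A) RNA, and chloroplast transcripts mostly lack such tails.

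The 14 ribosomal protein genes had a median of -0.08 (0 calls in edgeR, 0 at an unadjusted p under 0.05, 0 in DESeq2). The 5 circadian clock genes had a median of -0.06 (0, 1 and 0 by the same counts), and *LHY* (MLOC_14118), a morning clock gene, was at 5210.3 ± 618 CPM in O2 and 5227 ± 459 CPM in C. The shikimate and phenylpropanoid list (5 tested, median -0.22, 0 calls in edgeR, 2 at an unadjusted p under 0.05, 0 in DESeq2) held an increase short of the threshold, a class II DAHP synthase (MLOC_17364), the entry enzyme of aromatic amino acid synthesis. It had 304, 473, 259 and 362 CPM in O2 and 227, 209, 208 and 238 CPM in C, without overlap, and a log2 fold change of 0.59 ± 0.16 (SE; adjusted p = 0.0243, edgeR).

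The lists for abscisic acid (3 tested, median 0.08), heat and protein folding (5 tested, median 0.20), sugar transport (4 tested, median -0.02) and cell wall (5 tested, median -0.09) held no call, no unadjusted p under 0.05 in edgeR and no DESeq2 call. In bulk leaf tissue, fewer cells of a type and less RNA per cell cannot be told apart, nor can a strong response in a few punctured cells from a weak one in many.

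**Figure D3:**
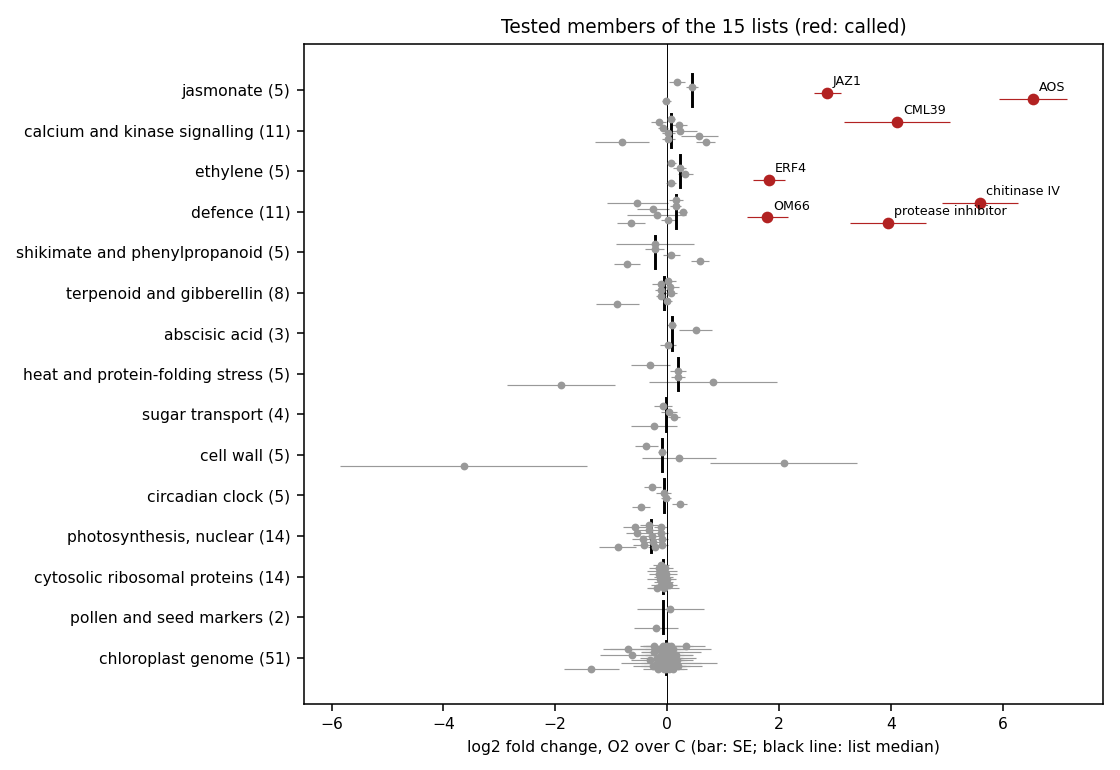
Log2 fold change of O2 over C (horizontal axis, bars are SE) for the tested members of 15 gene lists, with the number tested in brackets and the list median as a black line. Called genes (red) stand in the jasmonate, calcium and kinase, ethylene and defence rows, to the right of 1, and the other lists hold none.

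The strength of the response differed between the 4 O2 leaves. Averaged over the 445 induced genes, the log2 difference from the control mean was 2.75, 3.26, 1.61 and 2.58 in O2 replicates 1 to 4, and between -0.08 and 0.09 in the C libraries. These genes took 1.19%, 1.65%, 0.585% and 1.14% of all counts in the O2 libraries, against 0.239% to 0.333% in C. The replicate order was shared by most of them. Replicate 2 was the highest O2 library for 376 of the 445 (84.5%, against 31.3% of all tested genes) and replicate 3 the lowest for 415 (93.3%, against 28.3%).

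Even in replicate 3, 413 of the 445 genes were above all 4 C libraries and 298 were at over 2 times the control mean. In the other replicates 444, 445 and 444 were above all C libraries. The median SD of log2 level among O2 libraries was 0.71 for the induced genes, against 0.20 for all tested genes, and among C libraries it was 0.35 and 0.20. As the genes were chosen on these libraries, the values describe them and test nothing. In the T2, W2, O24, T24 and W24 groups the median SD for the induced genes was 0.31 to 0.54. The main fit shared 1 estimate of spread over all groups. The number of genes called changed from 448 to 334 without O2 replicate 2 and to 546 without O2 replicate 3.

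**Figure D4:**
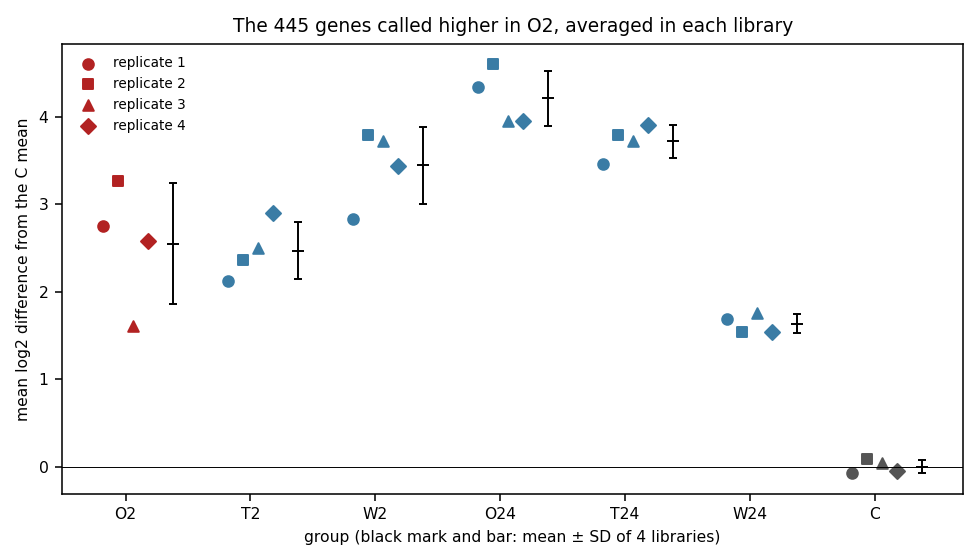
Mean log2 difference from the control mean (vertical axis) over the 445 genes called higher in O2, for each of the 28 libraries by group, with symbols for replicates and the group mean ± SD in black. O2 replicates run from 1.61 to 3.26, the widest spread of any group, and the C libraries lie between -0.08 and 0.09.

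The 2 mites were compared directly at 2 h. Between O2 and T2, 0 of 16948 genes (0%) were called in edgeR, 517 (3.05%) had an unadjusted p under 0.05, and the lowest adjusted p was 0.25. DESeq2 called 1 gene, MLOC_36529, which is named after its values were seen. It had 5.71, 7.501, 2.84 and 4.09 CPM in O2 and 1.54, 1.79, 1.32 and 2.64 CPM in T2. A count of 0 does not show that the responses were alike, and the differences have intervals. The 445 induced genes had a median log2 fold change of 0.09 for O2 over T2, with an interquartile range of -0.24 to 0.45, and 396 differed by less than 1 in either direction. An unadjusted p under 0.05 was reached by 61 of them (13.7%, against the 3.05% of all tested genes), 39 higher and 22 lower in O2, and the choice of these genes used the same O2 libraries.

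For *AOS* the O2 over T2 difference was 0.21 with a 95% interval of -0.71 to 1.14, for *JAZ1* -0.33 (-0.79 to 0.14), for the class IV chitinase 0.11 (-0.73 to 0.94) and for *CML39* -0.07 (-1.36 to 1.22). The protease inhibitor (MLOC_2643) had the widest gap among these genes, with 29.1, 106, 11.2 and 42.2 CPM in O2 and 10.6, 12.98, 8.84 and 16.1 CPM in T2, a log2 difference of 1.92 (0.63 to 3.21, not adjusted over genes), and the adjusted p was 1. The T2 libraries were smaller, with 11708010 to 17422941 counts, and genes chosen as high in O2 tend to be high in O2 in any comparison that uses the same O2 libraries.

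Many of the induced genes were lower in O2 than in wounded leaves of the same time. Of the 445, 193 (43.4%) were called lower in O2 than in W2, where 16.7% of all tested genes were. Another 64 (14.4%) were called higher in O2, against 9.64% of all. The 445 were chosen as high in these same O2 libraries, so the share called higher tests nothing. The median log2 fold change of O2 over W2 was -0.75 for the 445 and 0.01 for all tested genes. *RNS1* was at 345, 784, 867 and 590.2 CPM in W2, far above the 10.5 to 25.5 CPM of O2 (log2 fold change of O2 over W2 -5.45, adjusted p = 4.04e-13, edgeR). *CML39* (-4.88), the beta-glucanase gene MLOC_25343 (-3.96), MLOC_18178 (-3.14), the class IV chitinase (-2.74), *ERF4* (-2.59) and *JAZ1* (-1.31) were also called lower in O2.

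In the other direction, *GSH2* was at 21.4 to 48.3 CPM in O2, against 13.6 to 18.5 CPM in W2, without overlap (log2 fold change 1.08, adjusted p = 1.37e-04, edgeR). The terpene synthase genes MLOC_76989 (4.62, adjusted p = 2.95e-04) and MLOC_56812 (3.23, adjusted p = 0.00131) were also higher in O2. *AOS* had 97.5, 275, 269 and 176 CPM in W2, within the range of O2, and was not called (-0.52, adjusted p = 0.31).

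The early genes were mostly higher still after 24 h of the same mite. Of the 445, 295 (66.3%) were called between O24 and O2 in either direction, against 31.4% of all tested genes. Of these, 262 were higher in O24, where 3103 of all 16948 tested genes were, and 33 (7.42%) were lower, against 13.1% of all. Their median log2 fold change of O24 over O2 was 1.52, with an interquartile range of 0.40 to 2.73. The protease inhibitor reached 1039.5, 592, 181 and 359.7 CPM in O24, each above every O2 library (log2 fold change 3.39 ± 0.62, adjusted p = 3.37e-05, edgeR). The class IV chitinase was at 16.3, 21.1, 16.0 and 18.6 CPM in O24 (2.94), *CML39* at 14.1, 22.3, 12.3 and 17.2 CPM (4.31), and *OM66* averaged 17.5 CPM (4.14). *JAZ1* averaged 392.3 ± 43.0 CPM in O24 (1.16). The largest step among named genes was that of the terpene synthase gene MLOC_13618, which had not been called at 2 h and averaged 174 CPM in O24, against 0.256 CPM in O2 (9.19 ± 0.40, adjusted p = 8.16e-16, edgeR). The study named this gene for its induction at 24 h in these data, so the step tests nothing.

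A smaller set was lower at 24 h than at 2 h. The induced genes were chosen as high in the same O2 libraries, so a fall from O2 tests nothing. *GSH2* had 9.42, 13.7, 7.79 and 7.37 CPM in O24, all below the O2 libraries and around the C range of 9.39 to 13.01 CPM (log2 fold change of O24 over O2 -2.10 ± 0.23, adjusted p = 1.601e-08, edgeR). *ERF4* (1.65 ± 0.252 CPM in O24, -1.22) and *RNS1* (8.07 ± 3.06 CPM in O24, -1.11) were also called lower at 24 h. Of the 33 genes called lower in O24 than in O2, 24 were not called between O24 and C, 7 were still called higher and 2 were called lower than C. *AOS* had 269, 281, 134 and 95.9 CPM in O24, overlapping O2, and was not called (0.23, adjusted p = 0.65). Mite number differed between these groups, with 200 females at 24 h and 400 at 2 h, so time and mite number cannot be told apart.

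**Figure D5:**
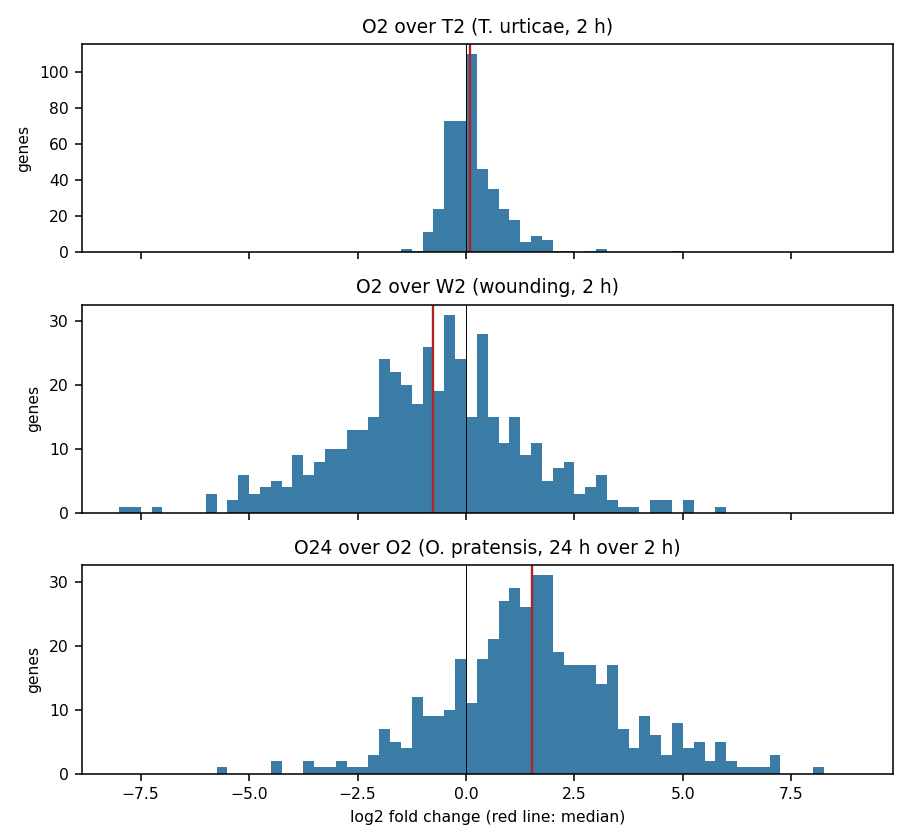
Number of genes (vertical axis) by log2 fold change (horizontal axis) for the 445 genes called higher in O2 than C, in O2 over T2 (top), O2 over W2 (middle) and O24 over O2 (bottom). The red median lines stand at 0.09, -0.75 and 1.52, and the top distribution is the narrowest.

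Relative to the shared C libraries, the induced genes had a median log2 fold change of 2.73 for O2, 2.54 for T2 and 3.88 for W2, and at 24 h of 4.62 for O24, 3.998 for T24 and 1.70 for W24. With genes at 0 in C set to their bound these medians were 2.73, 2.52, 3.79, 4.53, 3.89 and 1.52 in the same order. The same 4 control libraries and, for O2, the choice of genes enter these values, so they are set side by side without a test.

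Several named calls were lost under other fits. A fit of the 8 O2 and C libraries alone, which tested 15436 genes and 354 of the 448 called ones, called 206 genes, all higher. Of the 21 called genes with a pair that it tested, 9 kept their calls, among them *AOS*, *JAZ1*, *ERF4*, *GSH2* and the class IV chitinase, and 12 did not, among them the protease inhibitor (adjusted p = 0.0595, edgeR). Both terpene synthase calls were lost as well (adjusted p = 0.0476 for MLOC_76989 and 0.0389 for MLOC_56812).

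A stricter test against a 2-fold minimum (edgeR's glmTreat) called 224 genes, all higher, and 7 of the 23 called genes with a pair kept their calls. These were *AOS*, *JAZ1*, the class IV chitinase, the protease inhibitor, *PUB25*, MLOC_14660 and MLOC_22124, and the 16 lost included *CML39*, *ERF4* and *GSH2*. With counts thinned to the smallest library total, 356 genes were called, and 7 of the 23 lost their calls, namely *CML39*, *OM66*, *ALA1*, MLOC_13267, MLOC_18178, MLOC_25343 and MLOC_11918.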

How the data were processed

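Poly(A) RNA libraries, stranded and paired-end, were aligned by the authors with STAR to the Ensembl ASM3268v1 barley assembly, and reads with 1 position were assigned to genes on the reverse strand with HTSeq 0.6.0. The deposited table holds these raw counts for 25592 genes in 28 libraries (the submitters' notes name STAR 2.5.1b), and all its value columns were mapped to samples. Columns were matched to samples by name.

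Genes passing edgeR's filterByExpr (minimum count 10) were fitted with edgeR 4.0.16 (R 4.3.3, TMM factors, quasi-likelihood, 1 mean per group over all 28 libraries, 21 residual degrees of freedom), and p-values were adjusted over all 16948 genes. SE is the log2 fold change divided by the square root of the F statistic. CPM uses library totals. Libraries came from separate leaf sections, and replicates differed by more than sampling noise (chi-square per gene 8.59 to 96.6). The script was tested on simulated data. DESeq2 1.42.0, other scalings, filters and fits, and leaving out each library were the alternatives. Genes were named from the 3 terpene synthases of the study and all called list members. Lists with fewer than 2 of these were filled to 2 with uncalled members of the highest mean CPM. Called genes with an *A. thaliana* pair (the 30 largest) and at most 2 unpaired genes per direction without overlap and with at least 1 CPM were added. Members and lists were chosen with earlier results of these data known.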

Additional observations from a re-analysis of the deposited data

Results flagged for a closer look

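In 9 of 106 groups of 4 libraries, 1 library lay so far from the others that Dixon's ratio (gap over range) passed its 95% critical value for 4 samples. Independent values from a normal distribution would give about 1 in 20, which is 5.3 of 106. Some of these groups are mostly 0 and the genes share libraries, so 5.3 is only a rough guide. In O2, replicate 2 stood apart for MLOC_56812 (ratio 0.844, 7.04 CPM beside 0.681 to 1.67) and the heat-stress gene *FES1A*, MLOC_12937 (0.862), and replicate 1 for the kinase gene *CIPK10*, MLOC_10262 (0.854), and the terpenoid gene *FPS1*, MLOC_10729 (0.841). In C, replicate 2 stood apart for MLOC_15761 (0.837) and MLOC_13618 (0.932, 0.417 CPM beside 0 to 0.0284), replicate 3 for MLOC_13267 (0.913) and *TKL1*, MLOC_20190 (0.897), and replicate 1 for the ribosomal gene *RPL7*, MLOC_17150 (0.848).

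Levels differed between O24 (200 females) and O2 (400 females) for 16 of the named genes that were called or are terpene synthases. Only named genes were looked at here, and 295 of the 445 induced genes differed, against 31.4% of all tested genes. Time and mite number cannot be told apart. The test was O24 against O2, with the shared controls cancelling. On the log2 scale 13 were higher in O24: MLOC_13618 by 9.19, MLOC_13267 by 4.80, *CML39* by 4.31, *OM66* by 4.14, the protease inhibitor by 3.39, MLOC_11918 by 3.24, MLOC_140 by 3.21, *ALA1* by 2.96, the class IV chitinase by 2.94, *PRS3* by 2.92, *URGT2* by 1.68, MLOC_51631 by 1.27 and *JAZ1* by 1.16. Of these 13, MLOC_51631 had been called lower in O2 than in C. The other 3 of the 16 were lower in O24, with values of -2.10 for *GSH2*, -1.22 for *ERF4* and -1.11 for *RNS1*.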

How the results depend on the processing

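The 448 calls between O2 and C were between 334 and 546 when 1 library was left out, and the 445 higher calls kept their excess in all settings (97.1% to 100% of calls). No scaling moved the median of all genes by over 0.1. The count fell to 206 with only O2 and C fitted and to 224 under glmTreat, all of them higher, so 0 were lower in both. The 3 lower calls were least stable: 7 in DESeq2, 0 with at least 5 CPM in 4 libraries, 17 at an adjusted p under 0.05, 14 without a fold minimum, and 0 (without O2 replicate 4) to 11 (without C replicate 2) when 1 library was left out. Between O2 and T2 DESeq2 called 1 gene. Without a fold minimum 9682 genes were called between O2 and W2 and 10300 between O24 and O2, and under glmTreat 2103 and 2914. Of the 58 genes run under the alternatives, none changed direction while called between O2 and C. Thinning to the smallest library total gave 356 calls. The cause of these differences was not tested, beyond the stricter or looser thresholds and fewer samples themselves.

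The study used a randomized block design and library numbers run by replicate, but the labels do not tie a replicate number to a block. Deviations of same-numbered O2 and C libraries correlated at 0.17, 0.047, 0.052 and 0.13, and 2 of 4 O2 libraries correlated best with their own number. These values do not settle whether the numbers mark blocks, which is not known. The main fit left the numbers out, and a fit with them as blocks is given beside it. With the replicate block 447 genes were called, 429 of them shared with the unblocked fit, 6 were lower, and *RNS1* lost its call. Genes with few control counts, such as *CML39* with 4, are limited by depth.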
